A study of Mus musculus with 4 samples.

Results

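The ATP-sensitive potassium (KATP) channel subunits are 4 of the 23337 gene symbols with a value in the heart RNA-seq libraries described here. They were taken by symbol, as the sulfonylurea receptor and Kir6 genes Abcc8, Abcc9, Kcnj8 and Kcnj11, and all 4 were measured in every library. The libraries came from hearts of C57BL6/J mice. PIMT fl/fl mice carried loxP-flanked PIMT alleles and served as controls, and csPIMT-/- mice had exons 3 and 4 removed in cardiomyocytes by Cre under the α-myosin heavy chain promoter, from late embryonic life. Each genotype was sampled at 2 and at 6 months of age, and each library held pooled RNA of 5 hearts of males and females. There was 1 library per group and no replicate, so single ratios carry counting error only and no p-value. A library of mice with the Cre transgene alone was not analysed here, so Cre and the loss of PIMT cannot be told apart.

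A KATP channel is an octamer in the plasma membrane. Kir6 subunits, Kir6.1 from Kcnj8 or Kir6.2 from Kcnj11, line the potassium pore and are closed by ATP, and sulfonylurea receptors, SUR1 from Abcc8 or SUR2 from Abcc9, surround the pore and carry the sites for MgADP and for the drugs that act on the channel. Ventricular cardiomyocytes mainly use Kir6.2 with the SUR2A splice form, atrial cardiomyocytes of the mouse use SUR1, and vascular smooth muscle and pericytes use Kir6.1 with SUR2B. Opening of these channels shortens the action potential when energy runs low.

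PIMT mRNA, listed under the symbol Tgs1, was read first as a check of the labels. Its normalized count, a read count that the authors scaled for library size, was 580 in the 2-month and 816 in the 6-month PIMT fl/fl library, against 160 and 162 with PIMT deleted. Both csPIMT-/- libraries were below both controls. The ratio over the control was 0.271 at 2 months and 0.194 at 6 months. With the trend over GC content given below subtracted, it was 0.599 and 0.493. The libraries held between 29823073 and 40705783 reads on genes. The log2 ratio of csPIMT-/- over PIMT fl/fl followed the GC content of the transcript across all genes (Spearman rho = 0.581 at 2 months and 0.607 at 6 months, a description over genes that share libraries). The atrial markers also differed widely between libraries, as given beside Abcc8. In whole hearts, fewer cells of a type and less RNA per cell cannot be told apart.

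SUR2 mRNA was the most abundant of the 4 subunit mRNAs per kilobase of exon in the control libraries. Without adjustment for GC content, it was the one with a lower level in csPIMT-/- hearts at both ages. Kir6.2 mRNA, likewise unadjusted, was higher in both csPIMT-/- libraries than in both controls. SUR1 mRNA was 1.83 times its control at 2 months and 1.03 times at 6 months, and Kir6.1 mRNA was 1.24 and 1.21 times its control. Of the 4 members, 1 was more than 2-fold away from its control at any age, Abcc9 at 6 months. Over all genes compared, 23% were more than 2-fold lower at 2 months and 25.7% at 6 months, and 16.4% and 16% were higher. With the GC trend subtracted no member was past 2-fold. The ratios at 2 and 6 months were then 0.954 and 0.727 for SUR2 and 0.895 and 1.16 for Kir6.2. For SUR1 they were 1.17 and 0.646, and for Kir6.1 0.946 and 0.888.

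Abcc9 encodes SUR2, the regulatory subunit of the ventricular and vascular channels. It lies on chromosome 6, minus strand, at chr6:142587862-142702315 of GRCm38. Its normalized count was 25339 in PIMT fl/fl hearts at 2 months and 25558 at 6 months, and 16975 in csPIMT-/- hearts at 2 months and 12467 at 6 months. The controls were close to each other, and both csPIMT-/- libraries lay below them. The ratio of csPIMT-/- over the control was 0.657 (95% counting interval 0.643 to 0.670) at 2 months and 0.475 (0.465 to 0.485) at 6 months. The ratio at 6 months was 0.724 times that at 2 months (0.703 to 0.745). The gene has 6 coding transcripts in the annotation, and gene counts do not separate SUR2A from SUR2B.

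Kcnj8 encodes Kir6.1, the pore subunit of vascular smooth muscle and pericytes. It is the chromosomal neighbour of Abcc9, at chr6:142564837-142571614 on the same strand, with 16247 bases between them. Its normalized count was 3438 in PIMT fl/fl hearts at 2 months and 2799 at 6 months, and 4353 in csPIMT-/- hearts at 2 months and 3486 at 6 months. The genotypes nearly met, since the 6-month csPIMT-/- library was just above the 2-month control. The ratio was 1.24 (1.19 to 1.30) at 2 months and 1.21 (1.16 to 1.27) at 6 months. Its ratio from 2 to 6 months was 0.778 in the controls and 0.779 in the csPIMT-/- libraries, and the ratio of the genotype ratios was 0.978 (0.915 to 1.04).

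On ratios not adjusted for GC content these neighbours lay on opposite sides of their controls, so the sequences before their starts are shown. With the GC trend subtracted both lay below their controls at both ages. Abcc9 was then at 0.954 and 0.727, and Kcnj8 at 0.946 and 0.888. RefSeq windows were at hand here for 2 of the 4 members, Abcc9 and Kcnj8, in build GRCm38.p6. Each is printed 5′ to 3′ on the minus strand, as the 250 bases before the RefSeq transcript start, and capitals mark motif letters. The RefSeq start of Abcc9 lies inside the gene as GENCODE places it, so 41 bases of its window are within the coordinates given above. For Kcnj8 none are.
Kcnj8, chr6:142571615-142571864: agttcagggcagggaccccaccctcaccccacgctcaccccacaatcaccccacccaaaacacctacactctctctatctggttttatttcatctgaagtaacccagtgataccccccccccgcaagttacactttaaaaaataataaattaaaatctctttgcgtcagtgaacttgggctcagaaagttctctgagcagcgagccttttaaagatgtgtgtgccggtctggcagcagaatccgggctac
Abcc9, chr6:142702275-142702524: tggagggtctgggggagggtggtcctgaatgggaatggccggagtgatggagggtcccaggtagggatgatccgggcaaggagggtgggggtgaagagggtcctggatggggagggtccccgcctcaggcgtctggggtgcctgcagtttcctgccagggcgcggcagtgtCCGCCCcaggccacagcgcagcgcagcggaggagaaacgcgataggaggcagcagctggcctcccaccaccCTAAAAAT
GC content was 49.2% for Kcnj8 and 66.8% for Abcc9, with a median of 52.4% over all windows. The search covered both strands of 300-base windows that also take in the first 50 transcribed bases. The Abcc9 window ends in CTAAAAATA, letters of the type bound by MEF2 factors, with its last base at the transcript start, so 8 of its letters are in the printed stretch. These letters were chosen after the sequence was seen, and 0.517% of 32851 windows held them. Abcc9 also held the GC box GGGCGG on the opposite strand at positions -79 to -74, as did 35.7% of windows with this motif anywhere. Kcnj8 held neither. The TATA motif TATAAA was in neither window, and 13.6% of all windows held it. The same was true of the GATA motif AGATAA, held by 11.2%, and of the CArG box bound by SRF, held by 1.63%.

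Kcnj11 encodes Kir6.2, the pore subunit of cardiomyocytes. It lies at chr7:46093953-46100764 of GRCm38, minus strand. Its normalized count was 4395 in PIMT fl/fl hearts at 2 months and 4212 at 6 months, and 6272 in csPIMT-/- hearts at 2 months and 7902 at 6 months. The controls were close together and below both csPIMT-/- libraries. The ratio was 1.40 (1.35 to 1.45) at 2 months and 1.83 (1.76 to 1.90) at 6 months, and the later ratio was 1.31 times the earlier one (1.24 to 1.38). Between the ages it was 0.916 in controls and 1.22 in csPIMT-/- hearts.

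Abcc8 encodes SUR1. It lies beside Kcnj11 at chr7:46104523-46180033, with 3758 bases between them, on the same strand. Its normalized count was 2655 in PIMT fl/fl hearts at 2 months and 3796 at 6 months, and 4965 in csPIMT-/- hearts at 2 months and 3995 at 6 months. The lowest value was that of the 2-month control and the highest that of the 2-month csPIMT-/- library, with both 6-month libraries between them. The ratio was 1.83 (1.75 to 1.92) at 2 months and 1.03 (0.981 to 1.07) at 6 months, where the interval includes equality. Against the control of the other age, the log2 ratio was 0.34 at 2 months and 0.56 at 6 months.

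**Figure D1:**
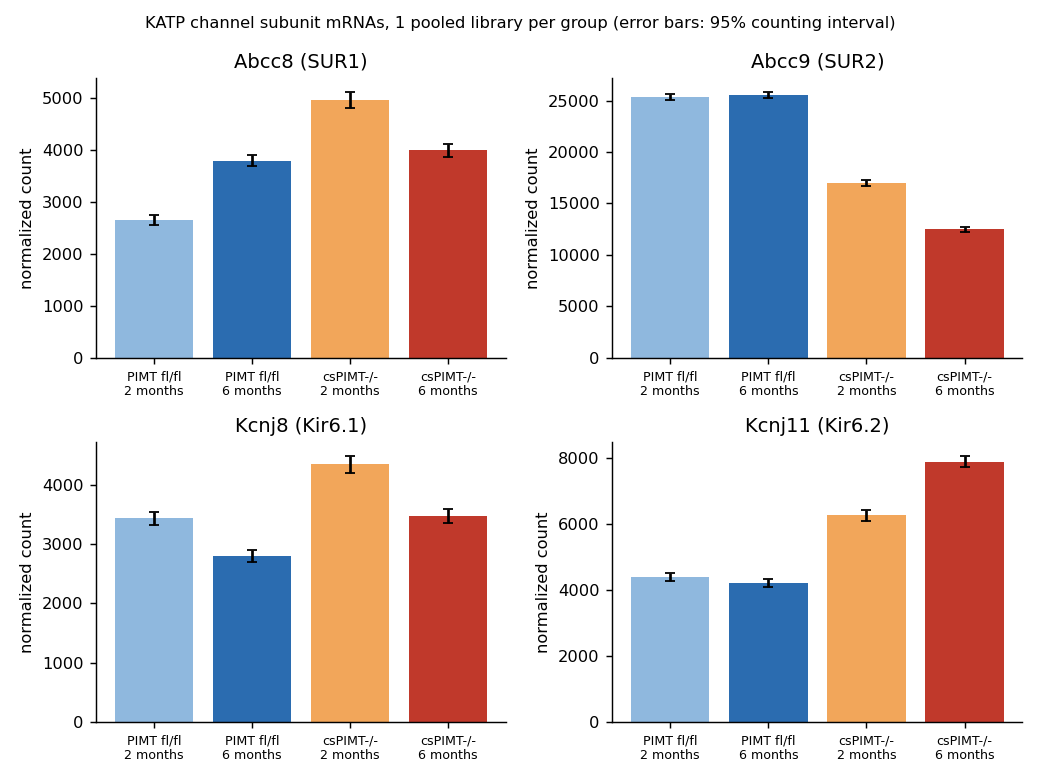
Normalized counts of the 4 subunit mRNAs (y axis, from 0) in the 4 libraries (x axis), with 95% counting intervals as error bars. Abcc9 stands at about the same height in both controls and at 16975 and 12467 in the csPIMT-/- libraries, Kcnj11 is above both controls in both, and Abcc8 is lowest in the 2-month control.

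Atrial markers differed between the libraries along with Abcc8. Myl7, the atrial regulatory light chain, had normalized counts of 1045 and 17299 in the 2- and 6-month controls, and of 42908 and 8084 in the 2- and 6-month csPIMT-/- libraries. Sln, the atrial calcium pump regulator sarcolipin, had 130 and 3996 in the controls, and 12629 and 1684 in csPIMT-/-. Myl4, the atrial essential light chain, had 1379 and 23002 in the controls, and 68851 and 18281 in csPIMT-/-. These 3 markers and Abcc8 shared the library with the lowest value, the 2-month control, and the one with the highest, the 2-month csPIMT-/-. Without GC adjustment they parted at 6 months, with ratios of 0.455 for Myl7, 0.411 for Sln and 0.774 for Myl4, beside 1.03 for Abcc8. With the GC trend subtracted all were below 1 at 6 months, at 0.310 for Myl7, 0.571 for Sln, 0.644 for Myl4 and 0.646 for Abcc8. None of the 6 atrial markers was at 0 in a library, and the lowest was Bmp10 at 5.19 in the 2-month control, a gene named after its values were seen. The summed level of the 6 ran from 41731 to 126707 in the controls and from 339946 to 352147 in csPIMT-/- hearts, mostly Nppa, the atrial natriuretic peptide that ventricles also express under load. Of the 6, limma called only Nppa, higher, with a log2 difference of 2.28 (adjusted p = 0.00972), beside 12.4% of all genes called higher. Nppa had ratios of 5.16 and 4.42, and its highest value was in the 6-month csPIMT-/- library. The median ratio of the list was 44.4 at 2 months and 0.471 at 6 months. The part of atrial RNA in the Abcc8 ratio was not tested.

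**Figure D2:**
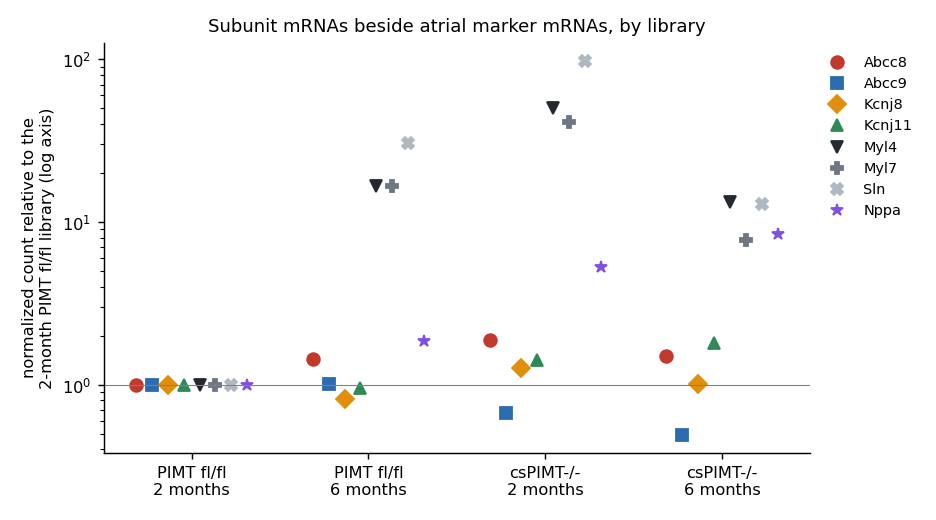
Normalized counts of the 4 subunit mRNAs and of 4 atrial markers, each divided by its value in the 2-month PIMT fl/fl library (y axis, log scale), by library (x axis). Myl4, Myl7 and Sln reach 49.9, 41.0 and 97.3 in the 2-month csPIMT-/- library, where Abcc8 is at 1.87, its highest.

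Markers of the other cells that use these subunits were read as lists. Of 8 pericyte markers, 2 were called lower by the limma fit over both ages and none higher, beside 18.8% of all genes called lower and 12.4% higher. Those were Rgs5, a regulator of G protein signalling (ratios 0.396 and 0.377), and Steap4, a metalloreductase (0.464 and 0.594). With the GC trend subtracted Rgs5 was at 0.941 and 1.02 and Steap4 at 0.782 and 1.11, so both turned at 6 months. Pdgfrb, the receptor for platelet-derived growth factor B, had ratios of 1.35 and 1.23, Cspg4 of 1.60 and 1.45, and Notch3 of 1.04 and 1.11. With the GC trend subtracted Pdgfrb was at 0.936 and 0.841, Cspg4 at 0.987 and 0.884, and Notch3 at 0.641 and 0.671. The summed level of the 8 was 35401 and 37177 in controls and 37318 and 33618 in csPIMT-/-. None of the 6 smooth muscle markers was called by limma, with median ratios of 2.70 at 2 months and 0.768 at 6 months, and summed levels of 54882 and 40906 in controls and 67968 and 31119 in csPIMT-/-. Of 9 cardiomyocyte markers 1 was called, Pln, the calcium pump inhibitor phospholamban, with a log2 difference of -1.67 and GC-adjusted ratios of 1.13 and 0.796. The summed level of the 9 was 3244680 and 3696260 in controls and 2539020 and 1835350 in csPIMT-/-. Ttn, the most abundant of them, had ratios of 0.561 and 0.284, or 0.731 and 0.376 with the GC trend subtracted. Of the 9, 5 at 2 months and 4 at 6 months had ratios above 1. The heart label stood in every library, with Myh6 and Ttn among the abundant mRNAs. No marker of these 3 lists was at 0. Their part in the ratios of Kcnj8 and Abcc9 was not tested.

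Ratios of 2-fold were common in these libraries. At 2 months, none of the 4 members was past 2-fold in either direction, against 16.4% of the 15152 genes compared that were higher and 23% that were lower. At 6 months, 1 of 4 was past 2-fold lower and none higher, against 25.7% of 15218 genes lower and 16% higher. A share of 1 in 4 is close to the background. Between the controls of 6 and 2 months no member was past 2-fold, and 8.15% of 15132 genes were higher and 5.21% lower. Without GC adjustment, the genotype ratios of Abcc9 and Kcnj11 at both ages were farther from 1 than their ratios between the control libraries, 0.964 and 0.916. With the GC trend subtracted, Abcc9 at 2 months was at 0.954, nearer to 1 than its control ratio of 0.926. The Kcnj8 genotype ratios, 1.24 and 1.21, were about as far from 1 as its control ratio, 0.778. For Abcc8 the unadjusted control ratio, 1.37, was farther from 1 than its genotype ratio at 6 months. With the GC trend subtracted this order turned, with log2 ratios of 0.56 between the controls and -0.63 between the genotypes at 6 months.

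The 4 libraries were also fitted together with limma on log2 values, with genotype and age in the model. The fit has 1 residual degree of freedom and borrows the spread from all genes. No member passed an adjusted p of 0.05, against 18.8% of 14935 genes called lower and 12.4% called higher. Abcc9 had a log2 difference of -0.81 ± 0.251 (SE), with an adjusted p of 0.0536 by limma. Kcnj11 had 0.70 ± 0.218, with an adjusted p of 0.0540 by limma. Both were just outside the threshold. Each library was also left out in turn, in limma fits on genotype without age. These fits leave 1 library in a genotype and partly mix genotype with age. The log2 difference ran from -1.02 to -0.58 for Abcc9 and from 0.54 to 0.88 for Kcnj11. Both were farthest from 0 without the 2-month csPIMT-/- library. The limma difference was 0.48 ± 0.273 for Abcc8 (adjusted p = 0.217) and 0.32 ± 0.208 for Kcnj8 (adjusted p = 0.270). A p that misses the threshold does not show that the levels were alike.

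The subunits differ in GC content, from 46.2% in Abcc9 to 53.3% in Kcnj8, 57.1% in Kcnj11 and 57.3% in Abcc8. Genes within 1 percentage point of Abcc9 had a median ratio of 0.695 at 2 months and 0.649 at 6 months, and 46.5% and 30.2% of them lay below Abcc9. For Kcnj11 the medians were 1.61 and 1.58, with 38.5% and 63.0% of genes below it. For Abcc8 they were 1.62 and 1.59, with 60.8% and 19.4% below, and for Kcnj8 1.36 and 1.38, with 43.3% and 39.4% below. Each member thus lay within the middle 50% of genes of its own GC content, except Abcc8 at 6 months, which was below it. This comparison was chosen after the data were seen. With a smooth GC trend subtracted, the ratio of Abcc9 was 0.954 at 2 months and 0.727 at 6 months, and that of Kcnj11 0.895 and 1.16. Kcnj8 was at 0.946 and 0.888, below 1 at both ages, and Abcc8 at 1.17 and 0.646. In the same limma fit with the trend subtracted, the log2 differences were -0.25 for Abcc9, 0.03 for Kcnj11, -0.11 for Kcnj8 and -0.20 for Abcc8, and no gene at all was called, with 3502 of 13552 at an unadjusted p below 0.05.

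**Figure D3:**
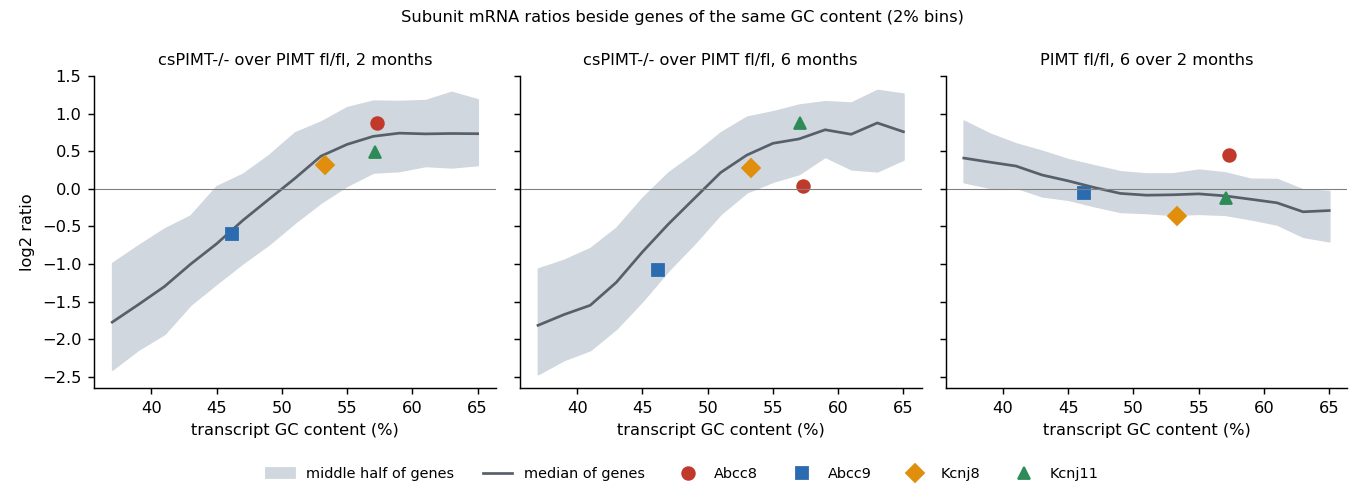
log2 ratio (y axis) against transcript GC content in percent (x axis), for csPIMT-/- over PIMT fl/fl at 2 and 6 months and for the controls of 6 over 2 months. The line is the median and the band the middle 50% of genes in bins 2 percentage points wide, and the symbols are the 4 subunits. The medians climb with GC content in both genotype panels, and the subunits lie in or near the band, with Abcc8 below it at 6 months.

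**Figure D4:**
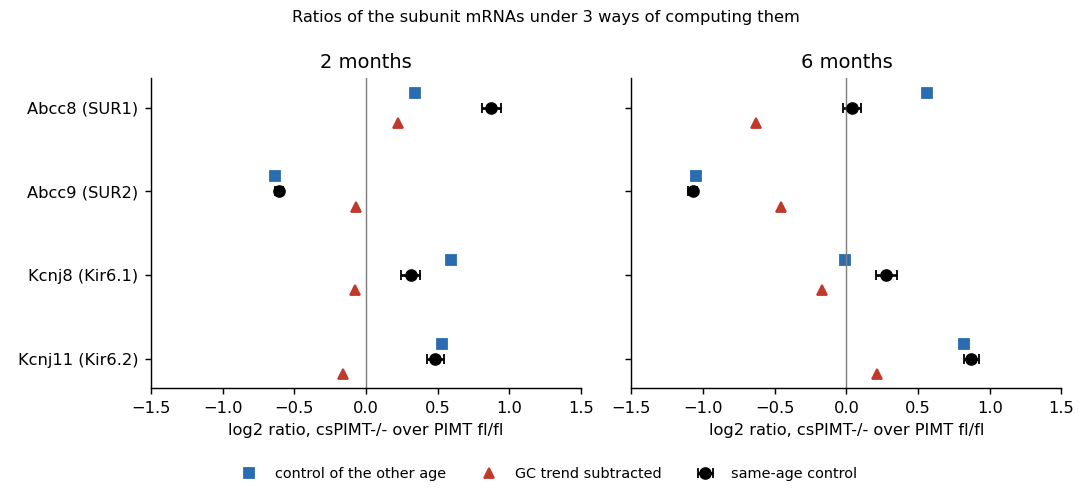
log2 ratio of csPIMT-/- over PIMT fl/fl (x axis) for each subunit (y axis) at 2 and 6 months, relative to the same-age control with its 95% counting interval (circle), against the control of the other age (square) and with the GC trend subtracted (triangle). Abcc9 stays left of 0 in the settings shown, and each of the other three crosses it in at least 1.

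Levels of different subunits were compared per kilobase of exon. In the 2-month control the order was Abcc9 at 3026 normalized counts per kilobase, Kcnj8 at 1349, Kcnj11 at 1195 and Abcc8 at 328. In the 6-month control Abcc9 was at 3052, Kcnj11 at 1145, Kcnj8 at 1098 and Abcc8 at 469, and the counting interval of the Kir6 ratio included equality. In csPIMT-/- hearts of 2 months Abcc9 was at 2027, Kcnj8 at 1709, Kcnj11 at 1706 and Abcc8 at 614, with the Kir6 pair again not separable. At 6 months Kcnj11 came first in csPIMT-/- hearts, at 2149, followed by Abcc9 at 1489, Kcnj8 at 1368 and Abcc8 at 494. Abcc8 was thus the lowest of the 4 in every library. These levels were not adjusted for GC content. With the GC trend subtracted, the 6-month ratio over the control was 0.727 for Abcc9 and 1.16 for Kcnj11, against 0.475 and 1.83 without it. The order of this pair in csPIMT-/- hearts of 6 months thus depended on the adjustment.

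SUR2 mRNA per kilobase was 9.22 times SUR1 mRNA in the 2-month control (95% counting interval 8.89 to 9.57) and 6.51 times in the 6-month control (6.30 to 6.72). In csPIMT-/- hearts it was 3.30 times (3.19 to 3.42) at 2 months and 3.02 times (2.91 to 3.13) at 6 months. SUR2 was thus the main receptor mRNA in every library. With the longest transcript as length the ratios were 6.21 and 4.38 in controls and 2.22 and 2.03 in csPIMT-/-. Relative to its control, the csPIMT-/- ratio was 0.358 times at 2 months and 0.463 times at 6 months. Abcc9 and Abcc8 differ in GC content, and with the GC trend subtracted the same values were 0.819 and 1.13, so the direction turned at 6 months. SUR1 was 9.78% and 13.3% of the receptor mRNA per kilobase in controls of 2 and 6 months, and 23.2% and 24.9% in csPIMT-/-.

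For the pore, Kir6.2 mRNA per kilobase was 0.886 times Kir6.1 mRNA in the 2-month control (0.850 to 0.924) and 1.04 times in the 6-month control (0.997 to 1.09). It was 0.998 times (0.956 to 1.04) in the 2-month csPIMT-/- library and 1.57 times (1.51 to 1.64) in that of 6 months, the one library where Kir6.2 led clearly. Which of the pair led depended on the length used. With coding length the ratios were 1.39, 1.64, 1.57 and 2.46, in the order of the libraries just given. Relative to its control, the csPIMT-/- ratio was 1.13 times at 2 months and 1.51 times at 6 months, and 0.946 and 1.31 times with the GC trend subtracted. Receptor mRNA summed per kilobase was 3354 and 3522 in controls and 2641 and 1983 in csPIMT-/-, whereas pore mRNA was 2544 and 2244 in controls and 3414 and 3517 in csPIMT-/-. Per kilobase of exon, pore over receptor was 0.759 and 0.637 in controls and 1.29 and 1.77 in csPIMT-/-. Which of these led depended on the computation, since with the GC trend subtracted pore over receptor was 0.717 and 0.913 in csPIMT-/-, and with coding length it was 1.07 in the 2-month control.

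**Figure D5:**
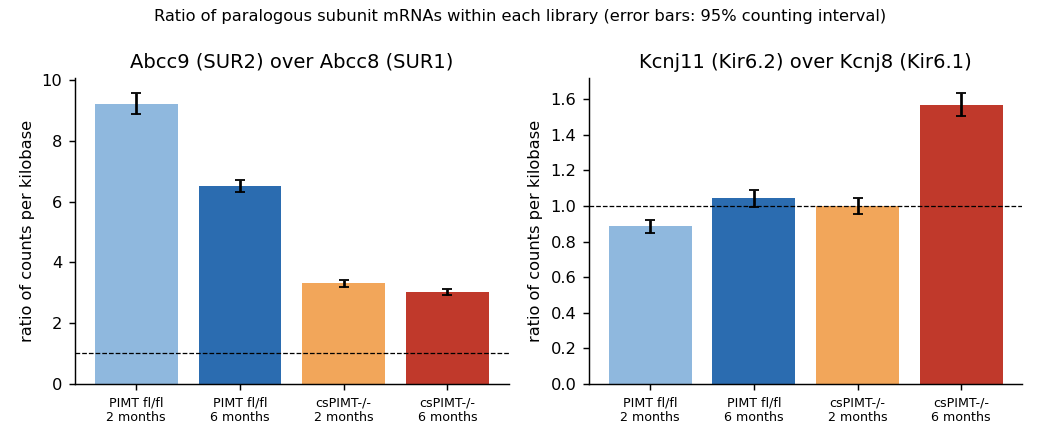
Ratio of normalized counts per kilobase of exon (y axis, from 0), Abcc9 over Abcc8 and Kcnj11 over Kcnj8, within each library (x axis), with 95% counting intervals. The dashed line marks a ratio of 1. Abcc9 over Abcc8 is 9.22 and 6.51 in the controls against 3.30 and 3.02 in csPIMT-/-, and Kcnj11 over Kcnj8 is highest, 1.57, in the 6-month csPIMT-/- library.

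The other inward rectifier subunits form potassium pores without a sulfonylurea receptor. Of 13 listed, 7 passed the filter on low counts, and limma called 1 lower and 2 higher, with a median log2 difference of -0.85 beside 0.03 over all genes tested. Over all genes, 18.8% were called lower and 12.4% higher. Kcnj2, which encodes Kir2.1 of the resting inward rectifier current, had normalized counts of 2553 and 6042 in controls and 1364 and 636 in csPIMT-/- hearts (log2 difference -2.08 ± 0.532, limma adjusted p = 0.0324). Its ratios were 0.524 and 0.102, and with the GC trend subtracted 1.24 at 2 months, a turn in direction, and 0.277 at 6 months. Kcnj4, which encodes Kir2.3, had 31.2 and 33.4 in controls and 149 and 286 in csPIMT-/-, with a log2 difference of 2.64. Kcnj14, which encodes Kir2.4, had 190 and 363 in controls and 607 and 1319 in csPIMT-/-, with a log2 difference of 1.76. With the GC trend subtracted Kcnj4 was at 2.87 and 5.00 times its control and Kcnj14 at 2.03 and 2.28 times. For Kcnj2 and the last 2, both csPIMT-/- libraries lay outside the range of the controls. Kcnj5 and Kcnj3, the subunits of the acetylcholine-gated atrial channel, had ratios of 0.733 and 1.46 at 2 months and 0.281 and 0.119 at 6 months, and neither was called. Kcnj12 and Kcnj15 were not called either.

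Among 9 other transporters of ABC subfamily C, the family of the sulfonylurea receptors, 7 passed the filter, none was called by limma, and the median log2 difference was 0.55. Abcc1 had ratios of 1.10 and 1.53, and Abcc5 of 0.667 and 0.845. Of 14 partners and regulators of the channel, limma called 4 lower and none higher, beside 18.8% and 12.4% of all genes, with a median of -0.01. Ank2, the ankyrin-B scaffold that anchors Kir6.2, was lower, with ratios of 0.534 at 2 months and 0.284 at 6 months. Hif1a, the hypoxia-induced transcription factor, had 0.364 and 0.409, Prkg1, the cGMP-dependent kinase, 0.418 and 0.495, and Sp1, a GC box factor, 0.452 and 0.608. With the GC trend subtracted Ank2 kept its direction, at 0.589 and 0.304, and the other three lay above 1 at 6 months. Those values were 0.848 and 1.09 for Hif1a, 0.956 and 1.30 for Prkg1, and 0.851 and 1.31 for Sp1. Of the metabolic enzymes thought to set ATP near the channel, Ckm had ratios of 1.55 and 0.971, Ldha of 1.55 and 1.89 and Ak1 of 1.42 and 1.21, and none was called. With the GC trend subtracted Ckm was at 1.13 and 0.687, Ldha at 1.38 and 1.59, and Ak1 at 1.01 and 0.839, a turn at 6 months.

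The flanking genes were read as well. Nomo1, before Kcnj11 on chromosome 7, was called higher by limma (log2 difference 0.995 ± 0.221, adjusted p = 0.0228), with ratios of 2.16 and 1.77, or 1.45 and 1.19 with the GC trend subtracted. Ush1c, after Abcc8, had ratios of 0.530 and 0.986, and Ldhb and Cmas beside the Kcnj8 and Abcc9 pair 1.71 and 1.05, and 1.08 and 1.04. Among 12048 other genes, those whose log2 values over the 4 libraries lay closest to each member were Socs5, Hmgn1 and Sf3a3 for Abcc9, Atp6v0a1, 2010011I20Rik and Adprhl1 for Kcnj11, Neil1, Zbtb42 and Echdc3 for Abcc8, and Sema3d, 0610010K14Rik and Ruvbl2 for Kcnj8. Their Euclidean distances after centring ran from 0.0168 for Sema3d to 0.0889 for Sf3a3, on the log2 scale. With 4 libraries such likeness is common.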

How the data were processed

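Heart RNA was pooled, selected for poly(A), and sequenced from directional libraries as single 50-base reads. The authors used STAR and the mm10 genome for alignment, HTSeq 0.6.1p1 for counting and DESeq2. The strand setting of the counting is not given in the sources used here. The deposited signal is a normalized count per gene symbol. Division by the smallest nonzero value of a library gave whole reads for 100.0% of values, within 4.9e-09 reads.

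Libraries were compared in pairs, scaled by the median of their gene ratios, over genes with at least 10 reads in 1 of them, with 0.5 reads added for log2 and with Clopper-Pearson 95% intervals. Intervals cover counting error only, and sequencing reads carried no molecular identifiers. The counting interval of a member's level reached at most 3.60% of it. Over both ages, limma 3.58.1 was fitted to TMM-normalized log2 values with a pseudocount of 1 and a mean trend, for genes with at least 10 counts in 2 libraries and 15 in total, with Benjamini-Hochberg adjustment. edgeR 4.0.16 and DESeq2 1.42.0 were run as alternatives on recovered reads. GC content, lengths and coordinates came from GENCODE M21 on GRCm38, the sequence of mm10, and GC trends were lowess curves with a span of 0.3. Scripts were tested on simulated data.

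The longest identical run was 23 bases between Abcc8 and Abcc9 and 21 between Kcnj8 and Kcnj11, shorter than a read. The antisense gene 5330439B14Rik, which shares 158 exon bases with Abcc9, had at most 1 read in any library.

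Named were the members, Tgs1, the 4 most abundant genes of each list, inward rectifiers with at least 100 reads in 1 library, genes that flank the loci and the 3 genes closest to each member. Other called genes of the lists, Bmp10 and Ucp1 were added after their values were seen. Members, lists and rules were chosen with earlier results of these data known. Nothing gives a sequencing batch, so no values within batches were computed.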

Additional observations from a re-analysis of the deposited data

How the results depend on the processing

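The log2 ratio of Abcc9 stayed below 0 and at least as negative as in the report at 2 months scaled to total reads (-0.67), the other control (-0.64) and both controls summed (-0.64), and was -0.067 with the GC trend subtracted. At 6 months it was -1.04 on the deposited scale, -1.11 scaled to total reads and -0.46 with the GC trend subtracted. For Kcnj11 it was 0.42 scaled to total reads and -0.16 with the GC trend subtracted at 2 months, a reversal, and 0.21 with that trend subtracted and 0.82 with the other control at 6 months. For Abcc8 it was 0.22 with the GC trend subtracted, 0.34 with the other control and 0.57 with both controls at 2 months, and -0.63, 0.56 and 0.28 at 6 months. For Kcnj8 it was -0.080, 0.59 and 0.43 at 2 months and -0.17, -0.0087 and 0.13 at 6 months in the same order, so that it reversed with the GC trend subtracted at both ages and with the other control at 6 months. Of the 28 member values under these alternatives at each age, 16 at 2 months and 17 at 6 months stayed within their counting intervals. With the GC trend subtracted, 1571 genes at 2 months and 1800 at 6 months were past 2-fold lower, and with at least 100 reads 1618 were past 2-fold higher at 2 months. In the fits over both ages, the GC trend reversed Abcc8 (-0.20) and Kcnj8 (-0.11). Among the fits to all 4 libraries, Abcc9 passed with genotype alone (-0.81, adjusted p = 0.0490 by limma) and with DESeq2 (-0.80, adjusted p = 0.0273). Kcnj11 passed among them with genotype alone (0.70, adjusted p = 0.0430 by limma). Over all alternatives the adjusted p of Abcc9 ran from 0.0273 by DESeq2 to 0.499 with the GC trend subtracted in limma. Leaving out each library in turn used limma fits on genotype without age. It gave 0.23 to 0.74 for Abcc8, -1.02 to -0.58 for Abcc9, 0.17 to 0.49 for Kcnj8 and 0.54 to 0.88 for Kcnj11. It gave 98 to 2524 genes called lower and 162 to 1595 called higher, against 2801 and 1858 in all 4 libraries, with 98 lower and 162 higher without the 6-month control, 1089 and 181 without the 2-month control and 1130 higher without the 6-month csPIMT-/- library. The lone library of a genotype is then assumed to vary like the other. Without the mean trend, or with the GC trend subtracted, limma called 0 genes in either direction, with 5944 and 3502 at an unadjusted p below 0.05, and edgeR on all 4 libraries called 2508 lower and 1619 higher. The ratio of Kcnj11 to Kcnj8 per kilobase passed above 1 in the 2-month control with the longest transcript (1.04) or coding length (1.39), and in the 2-month csPIMT-/- library (1.17 and 1.57). In comparisons added after the data were seen, subtracting the GC trend reversed the csPIMT-/- over control change of Kcnj11 over Kcnj8 at 2 months (0.946) and of Abcc9 over Abcc8 at 6 months (1.13), and took pore over receptor to 0.717 and 0.913 in csPIMT-/- at 2 and 6 months. Coding length took it to 1.07 in the 2-month control. The cause of these changes was not tested. Except in the fits on genotype alone and those without a library, age was in the model, so the genotypes were compared within ages. No replicate numbers were shared beyond that. Depth did not limit the members, each with at least 3068 reads in every library, and the lack of replicates did.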

Other observations

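Marker lists of the remaining cell types and tissues gave these values. Of 5 macrophage markers in the limma fit, 4 were called higher and none lower, namely Csf1r, Cd68, C1qa and C1qb, and the summed level was 11218 and 20150 in controls and 26937 and 38083 in csPIMT-/- hearts. C1qa, a chain of the complement component C1q, had normalized counts of 2303 and 5195 in controls and 8302 and 12325 in csPIMT-/-. Of 6 endothelial markers, Kdr and Tek, both receptors of vessel growth, were called lower by limma and Vwf, the von Willebrand factor, higher, with Vwf at ratios of 3.37 and 3.16. Of 6 fibroblast markers, limma called Lum lower, with ratios of 0.479 and 0.562, and none higher. With the GC trend subtracted Lum was at 1.06 and 1.43, so its direction turned at both ages. Over all genes, limma called 18.8% lower and 12.4% higher.

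Of 6 brown fat markers 5 entered the limma fit and none was called, and the median ratio, taken on the log2 scale, was 51.1 at 2 months and 0.640 at 6 months. Ucp1, the uncoupling protein of brown fat, had normalized counts of 8.65 and 93.2 in controls and 1766 and 12.5 in csPIMT-/- hearts. Of 6 lung markers 1 entered the fit and was not called, the other 5 were at 0 in at least 1 library, and the summed level was 39.8 and 22.0 in controls and 1170 and 97.8 in csPIMT-/-. The 2-month csPIMT-/- library, which had the highest Abcc8, also had the highest summed levels of both lists.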
